A study of Mus musculus with 4 samples.

Results

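Colony-stimulating factors are the secreted proteins that keep macrophages and granulocytes alive and direct their maturation. The 10 genes described here are the ligand Csf1, the receptor chains Csf1r, Csf2ra, Csf2rb, Csf2rb2 and Csf3r, and the transcription factors Spi1, Pparg, Cebpa and Cebpb. They were chosen by gene symbol: every probe set whose symbol in the platform annotation is exactly 1 of these names was taken. All 10 had at least 1 probe set, 18 in all, out of 45101 probe sets and 18193 named genes on the array. Each probe set measures 1 region of a transcript, and probe sets of the same gene share that gene and are not replicates.

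The study measured total RNA of whole mouse lung on 1 single-colour Affymetrix array per sample. There were 2 IKKa floxed lungs and 2 wild type lungs, all of strain B6/J, per the labels. IKKa floxed mice carry loxP sites in the gene for IKKα, a kinase of the NF-κB pathway that Cre recombinase can inactivate. Every mouse of both groups had received an adenovirus with Cre recombinase into the trachea, and lungs were collected 4 months later. The promoter that drives Cre, the lung cells the virus reached, and the age and sex of the mice are not stated there. Whether each array is a mouse of its own is not stated either, so a p-value here covers only how far these arrays differ, and that may be technical.

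In the lung, CSF1 acts on the receptor CSF1R of monocytes and interstitial macrophages. GM-CSF, the product of Csf2, acts on alveolar macrophages through an alpha chain, CSF2RA, and the shared beta chain CSF2RB, and drives PU.1 (the product of Spi1) and PPARγ in those cells. Mice that lack GM-CSF or its beta chain clear surfactant poorly and fill their alveoli with it. G-CSF acts through CSF3R, mainly on neutrophils. C/EBPα and C/EBPβ work beside PU.1 in granulocytes and macrophages, and C/EBPα also serves the type 2 cells of the alveolar epithelium.

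Several features of the arrays run together with genotype. Xist, expressed from the inactive X of females, had intensities of 4246 and 4629 in floxed lungs and 31.8 and 22.9 in wild type lungs. The Y-linked gene Eif2s3y had 3.77 and 6.14 in floxed lungs and 519 and 530 in wild type lungs. Arrays of opposite genotype therefore also had opposite sex patterns, and for every gene below genotype and sex cannot be told apart; no member lies on the X or Y chromosome. The ratio of 3′ to 5′ signal of Gapdh, a sign of RNA integrity, was 1.44 and 1.68 in floxed lungs and 1.18 and 1.1 in wild type lungs, and its part in the results was not tested. The highest intensity of an array was 19539 and 16645 in floxed lungs and 14910 and 14417 in wild type lungs. The part of this difference in the values and sums of bright genes was not tested. Chuk, the gene of IKKα, is not analysed here, so its deletion was not checked. Of 6 defining lung markers, among them the surfactant gene Sftpc and the club cell gene Scgb1a1, none passed the test. Their median log2 fold change was 0.27 (Sftpc 0.44, Cldn18 0.37 and Foxj1 -0.30). With probe sets of a gene averaged, Cldn18 had 0.16. Of the 6, 5 lay fully higher in floxed lungs and 1 fully lower, beside 23.5% and 22.2% of all genes tested. Their summed intensity was 45517 to 52274 in floxed and 38707 to 39867 in wild type lungs.

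Of the 10 genes, 1 passed the threshold and was higher in floxed lungs, Csf2rb, and none was lower. Genes were compared with limma on log2(intensity + 16), taking the brightest probe set of each gene on average, with Benjamini-Hochberg adjustment over all 12735 genes tested and a threshold of 0.05. Over all these genes 1.73% passed in either direction, 0.997% as higher and 0.73% as lower. All 10 genes passed the filter on low values. Their median log2 fold change was 0.20, with 7 above 0 and 3 below, beside a median of 1.67e-05 over all genes tested. The arrays of floxed lungs did not overlap those of wild type lungs for 6 of the 10 genes on the higher side and for 1 on the lower side, while over all genes tested this held for 23.5% and 22.2%. When every probe set was fitted as its own row, 0 of the 18 passed in limma, beside 0.552% of all 31526 probe sets tested. An unadjusted p under 0.05 was reached by 3 of the 18, beside 10.8% of all probe sets, and by 4 of the 10 genes in the fit of genes, beside 14.3% of all genes. Of the 18, 10 lay fully higher in floxed lungs and 1 fully lower, against 18.4% and 24% of all probe sets tested. In whole lung RNA, a change in the number of cells of a type and a change in RNA per cell cannot be told apart.

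**Figure D1:**
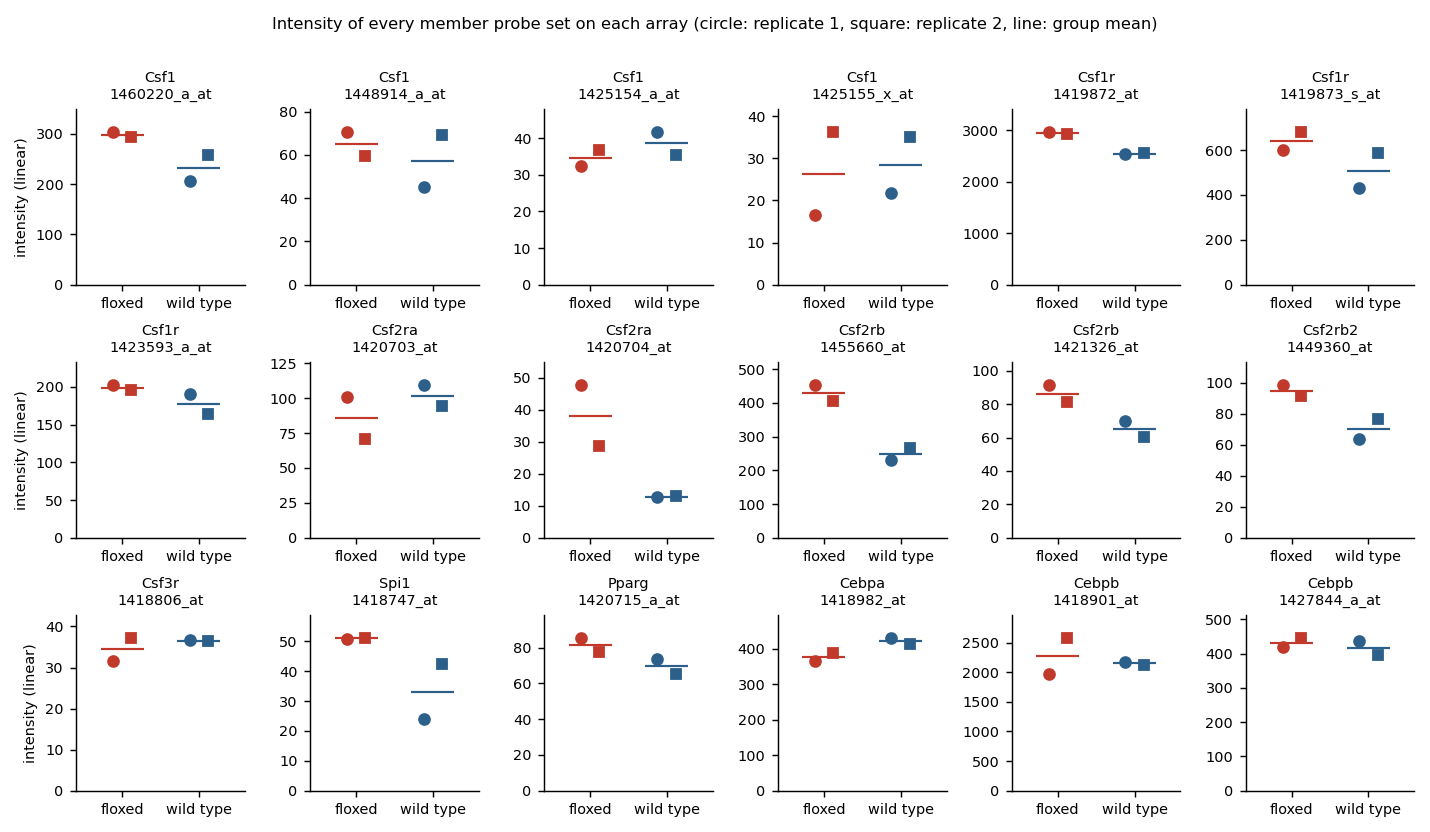
Linear intensity (vertical axis from 0, its own scale in each panel) of the 18 probe sets on each of the 4 arrays, with floxed lungs in red at left and wild type lungs in blue at right, replicate 1 as a circle, replicate 2 as a square and the group mean as a line. The 3 probe sets of Csf2rb and Csf2rb2 are higher on both floxed arrays, and the probe sets of Csf2ra go in opposite directions.

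The ligand Csf1, the growth factor of monocytes and macrophages, did not pass. Its brightest probe set, 1460220_a_at, had intensities of 303 and 293 in floxed lungs, against 206 and 259 in wild type lungs. Both floxed arrays lay above both wild type arrays, and the wild type arrays differed more from each other than the floxed arrays did. The log2 fold change was 0.34 ± 0.14 SE (limma adjusted p = 0.343; 95% interval 0.01 to 0.68). The other 3 probe sets overlapped between groups and pointed both ways, with log2 fold changes of 0.16, -0.11 and -0.09. The lowest of them, 1425155_x_at, read 16.5 and 36.2 in floxed lungs and 21.7 and 35.1 in wild type lungs, and its suffix marks probes that may bind other transcripts. The spread within each group was therefore larger than the difference between the groups for that probe set.

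Csf1r, the receptor tyrosine kinase for CSF1 and interleukin 34, was slightly higher in floxed lungs on each of its 3 probe sets, without passing the test. Probe set 1419872_at read 2962 and 2926 in floxed lungs, against 2540 and 2550 in wild type lungs. Probe set 1419873_s_at read 599 and 679 in floxed lungs, against 429 and 588 in wild type lungs. Probe set 1423593_a_at read 202 and 196 in floxed lungs, against 190 and 164 in wild type lungs. The groups did not overlap on any of the 3, but 1419873_s_at and 1423593_a_at had gaps between the groups that were smaller than the distance between the wild type arrays. The log2 fold changes were 0.21, 0.33 and 0.16. The first gave a limma adjusted p of 0.486 in the fit of genes with a 95% interval of -0.07 to 0.48. After quantile normalization the log2 fold change of 1419872_at was 0.11.

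Csf2rb, the signalling chain shared by the receptors for GM-CSF, interleukin 3 and interleukin 5, was the member that passed. Probe set 1455660_at had intensities of 452 and 405 in floxed lungs, against 231 and 265 in wild type lungs. The gap between the groups was wider than the distance between the arrays of either group. The means were 429 ± 33.3 in floxed and 248 ± 24.2 in wild type lungs (SD, n = 2 each), a 1.69-fold difference (log2 fold change 0.75 ± 0.13 SE, 95% interval 0.44 to 1.07, limma adjusted p = 0.0490). The adjusted p lay just inside the threshold, and leaving out any 1 of the 4 arrays ended the call: it was 0.104 and 0.0583 without floxed replicate 1 or 2, and 0.201 and 0.0934 without wild type replicate 1 or 2. The log2 fold change stayed between 0.66 and 0.85 in these fits. Its second probe set, 1421326_at, read 91.4 and 81.5 in floxed lungs, against 69.8 and 60.3 in wild type lungs. There the groups did not overlap either, with a smaller log2 fold change of 0.34 (adjusted p = 0.482 in the limma fit of probe sets).

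**Figure D2:**
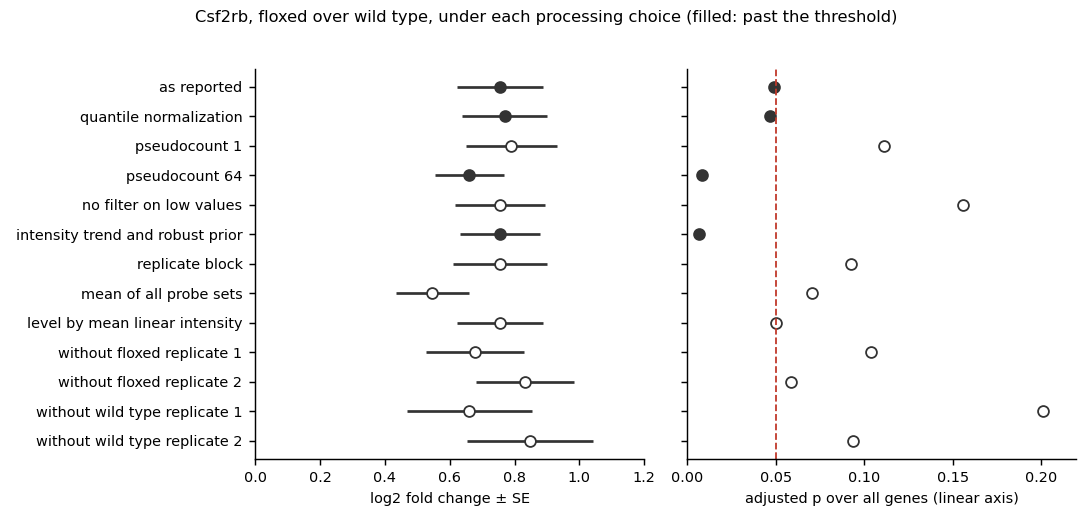
Log2 fold change of Csf2rb, floxed over wild type, with its SE (left) and limma adjusted p over all genes (right, dashed line at the threshold of 0.05) under each processing choice; filled points pass. The fold change lies between 0.55 and 0.85 throughout, while the adjusted p crosses the threshold in both directions, from 0.00648 to 0.201.

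Csf2rb2 lies next to Csf2rb on chromosome 15 in the RefSeq order (assembly GRCm38.p6) and encodes a beta chain that in mice serves interleukin 3 alone. Its 1 probe set, 1449360_at, read 98.2 and 91.1 in floxed lungs, against 63.4 and 76.4 in wild type lungs. Both floxed arrays were above both wild type arrays, with a gap about as wide as the distance between the wild type arrays. The log2 fold change was 0.37 ± 0.13 SE, and it did not pass (limma adjusted p = 0.273; 95% interval 0.05 to 0.68). The beta chain genes are close copies, so probes for one may bind the other. A further probe set, 1450200_s_at, which the annotation assigns to both and which is therefore no member, was low and overlapped between groups, at 13.1 and 5.2 in floxed lungs and 8.99 and 6.05 in wild type lungs.

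Csf2ra, the chain that binds GM-CSF itself, gave opposite directions on its 2 probe sets. Probe set 1420703_at read 100.5 and 70.5 in floxed lungs, against 109 and 94.3 in wild type lungs. These overlapped, with a log2 fold change of -0.23 ± 0.17 SE in the fit of genes (limma adjusted p = 0.613; 95% interval -0.64 to 0.18), which was -0.44 without floxed replicate 1 and -0.013 without floxed replicate 2. Probe set 1420704_at read 47.7 and 28.7 in floxed lungs, against 12.6 and 13.0 in wild type lungs. It was fully higher in floxed lungs, with the largest log2 fold change of the 18 probe sets, 0.89 ± 0.20 SE, but its floxed arrays lay far apart and it did not pass (adjusted p = 0.171 in the limma fit of probe sets). Its wild type values lie near the lowest intensity that was tested, 12.3. With the mean of both probe sets the log2 fold change of Csf2ra was 0.33 (adjusted p = 0.430).

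Csf3r, the G-CSF receptor of neutrophils, overlapped between groups. Its probe set 1418806_at read 31.7 and 37.1 in floxed lungs, against 36.6 and 36.6 in wild type lungs. The floxed arrays fell on both sides of the wild type arrays (log2 fold change -0.06 ± 0.12 SE, limma adjusted p = 0.872, 95% interval -0.36 to 0.23). Of 14 measured neutrophil markers, 7 passed the filter on low values, and of those the granule gene Ltf fell (-1.08, adjusted p = 0.0448, a call lost without either floxed array or without wild type replicate 1) and none rose. Mpo, Elane, Cxcr2, Mmp8, Camp, Ngp and Il1r2 were too low to be tested, and which cells gave the Ltf signal was not tested. The calprotectin genes S100a8 and S100a9 overlapped between groups, and Lcn2, a granule gene that epithelium also makes, stood at 0.37 without passing (adjusted p = 0.259). The summed intensity of the 14 was 2204 and 1632 in floxed lungs and 1839 and 1966 in wild type lungs.

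The receptor promoters are shown because PU.1 is known to act on genes of myeloid receptors and its own gene is a member. RefSeq sequences of 250 bases before to 50 after a gene's start were at hand for 7 of the 10 members, 9 promoters in all, on assembly GRCm38.p6; none was used for Csf1r, Csf2rb and Spi1. They are printed 5′ to 3′ on the strand of the gene, and capitals mark GAGGAA, a core that PU.1 and other ETS factors recognise, or its reverse complement.
Csf2rb2, chr15:78305672-78305971, minus strand: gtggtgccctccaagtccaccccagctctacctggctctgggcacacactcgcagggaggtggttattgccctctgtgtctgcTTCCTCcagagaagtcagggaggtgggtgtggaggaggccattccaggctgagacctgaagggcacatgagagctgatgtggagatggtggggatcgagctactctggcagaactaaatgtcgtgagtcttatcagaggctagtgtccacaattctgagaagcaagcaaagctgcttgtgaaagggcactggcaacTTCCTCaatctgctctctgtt
Csf2ra, chr19:61228369-61228668, minus strand: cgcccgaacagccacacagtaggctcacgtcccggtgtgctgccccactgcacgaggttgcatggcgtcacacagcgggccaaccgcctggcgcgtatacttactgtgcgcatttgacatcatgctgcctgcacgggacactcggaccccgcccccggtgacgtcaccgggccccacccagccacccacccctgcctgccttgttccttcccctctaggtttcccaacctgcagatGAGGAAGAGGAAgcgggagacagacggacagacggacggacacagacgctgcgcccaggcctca
Csf3r, chr4:126024409-126024708, plus strand: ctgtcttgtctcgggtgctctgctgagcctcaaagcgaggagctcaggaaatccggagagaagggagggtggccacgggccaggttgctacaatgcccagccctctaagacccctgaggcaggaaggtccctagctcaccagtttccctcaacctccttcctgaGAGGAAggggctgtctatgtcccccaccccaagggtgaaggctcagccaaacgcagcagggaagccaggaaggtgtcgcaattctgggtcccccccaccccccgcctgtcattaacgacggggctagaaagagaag
The Csf2ra promoter holds 2 such cores back to back just before the start, that of Csf2rb2 holds 2, 1 on either side of the start, and that of Csf3r holds 1. On both strands, GAGGAA occurs in 4 of the 9 member promoters and in 28.3% of all 32851 promoters of this length in the table. TTCNNNGAA, a core for STAT factors, occurs in 1 of the 9, that of Csf2rb2, against 8.3% of all. TTGCNNAA, a core for C/EBP factors, occurs in 1, a promoter of Pparg, against 10.8%. The NF-κB consensus occurs in those of Csf1 and Csf3r, against 8.46%. No hit overlaps a hit of another motif. These are matches of letters in a fixed window, and no binding was measured.

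Among the regulators, Spi1, which encodes the lineage factor PU.1, was higher in floxed lungs without passing. Its probe set 1418747_at read 50.9 and 51.0 in floxed lungs, against 24.0 and 42.4 in wild type lungs. The floxed arrays were nearly equal and both above the wild type arrays, which differed from each other by more than the gap between the groups. The log2 fold change was 0.47 ± 0.19 SE (limma adjusted p = 0.326; 95% interval 0.02 to 0.92), and it was 0.20 without wild type replicate 1 and 0.74 without wild type replicate 2.

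Pparg, the lipid-sensing nuclear receptor of alveolar macrophages and fat cells, did not pass. Its probe set 1420715_a_at read 85.2 and 77.8 in floxed lungs, against 73.7 and 65.4 in wild type lungs. The groups did not overlap, but the gap was narrower than the distance between arrays of a group (log2 fold change 0.19 ± 0.13 SE, limma adjusted p = 0.562, 95% interval -0.11 to 0.49). Of 17 measured genes on a list of PPARγ targets and partners, all tested, Fabp4 fell and none rose, with a median of 0.02. Fabp4, a fatty acid carrier of macrophages and fat cells, read 163 and 148 in floxed lungs, against 389 and 332 in wild type lungs (log2 fold change -1.13 ± 0.13 SE, adjusted p = 0.0113). The lipase gene Lpl, the lipid droplet gene Plin2 and the coactivator gene Ppargc1a had 0.48, 0.41 and -0.37 and did not pass (adjusted p = 0.119, 0.180 and 0.312). Of 10 measured adipocyte markers, 9 were tested, and Car3, Adipoq and Retn fell (-4.14, -1.73 and -0.91), with a list median of -0.44. Retn lost its call without either floxed array or without wild type replicate 1. In floxed lungs Adipoq read 18.6 and 14.5 and Retn 16.4 and 14.2, under the filter intensity of 20.4 for genes. Wild type lungs read 119 and 69.8 for Adipoq and 48.0 and 38.0 for Retn. With 1 or 64 added to intensities in place of 16, Adipoq had -2.40 or -0.96. Plin4 stood at -0.44 without passing (adjusted p = 0.279), while Lipe, Pnpla2 and Thrsp, picked after their values were seen, overlapped between groups. Of the 9 tested markers, 6 lay fully lower in floxed lungs and none fully higher, beside 22.2% and 23.5% of all genes tested. The summed intensity of the 10 was 446 and 569 in floxed lungs and 1477 and 1164 in wild type lungs, mostly through Car3: without it the sums were 434 and 530 in floxed lungs and 672 and 578 in wild type lungs. None was at 0, and the part of these cells in the values of Pparg, Fabp4 and Cebpa was not tested.

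Cebpa, a factor of granulocyte commitment, fat cells and type 2 alveolar cells, was the member that lay fully lower in floxed lungs. Its probe set 1418982_at read 364 and 388 in floxed lungs, against 429 and 414 in wild type lungs. The gap was close to the distance between the floxed arrays, and the difference did not pass (log2 fold change -0.16 ± 0.12 SE, limma adjusted p = 0.610, 95% interval -0.44 to 0.12). None of 10 measured type 2 alveolar markers passed, with a median of 0.09 and a highest log2 fold change of 0.44 for Sftpc (Napsa 0.17 and Etv5 -0.32), and their summed intensity was 49180 and 45403 in floxed lungs and 42203 and 40600 in wild type lungs.

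Cebpb, a factor induced in activated macrophages, overlapped between groups on both probe sets. Probe set 1418901_at read 1967 and 2574 in floxed lungs, against 2174 and 2129 in wild type lungs. Probe set 1427844_a_at read 418 and 445 in floxed lungs, against 437 and 395 in wild type lungs. On the first, the floxed arrays lay on either side of the wild type arrays. The log2 fold changes were 0.06 and 0.05, and the limma adjusted p of the first was 0.899 in the fit of genes (95% interval -0.31 to 0.44). Its direction flipped to -0.01 after quantile normalization and to -0.13 without floxed replicate 2.

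**Figure D3:**
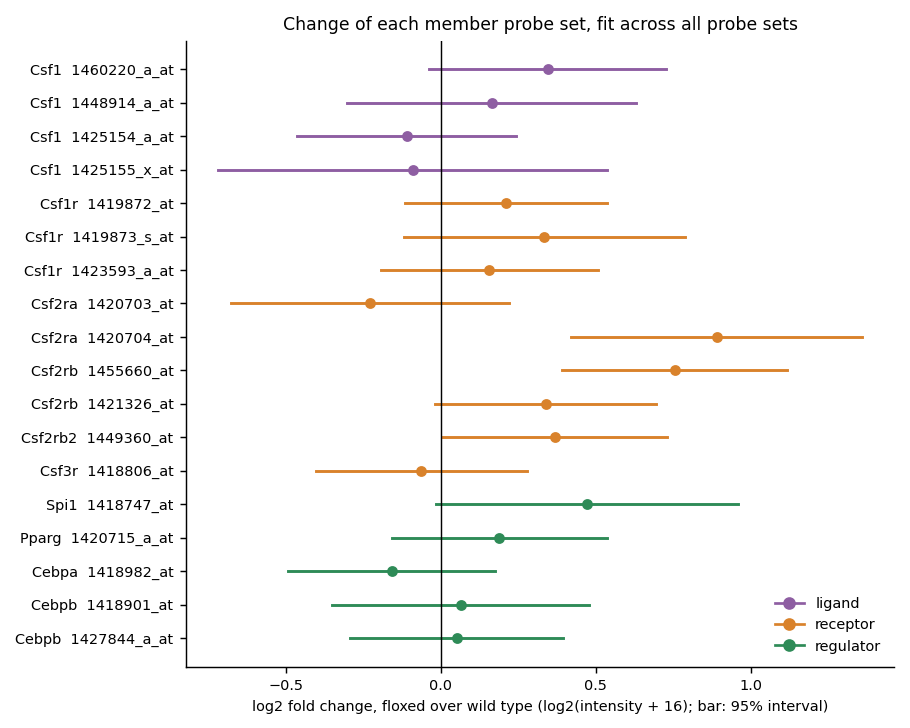
Log2 fold change, floxed over wild type, of the 18 probe sets with 95% intervals from the limma fit of all probe sets; colours give the role of the gene. Probe sets of receptor chains hold the 3 whose intervals lie wholly above 0 in this fit: 1420704_at of Csf2ra, 1455660_at of Csf2rb and 1449360_at of Csf2rb2. In the fit of genes, the intervals of Csf1 (0.005 to 0.68) and Spi1 (0.02 to 0.92) also lay above 0.

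By role, 7 of the 9 receptor probe sets lay fully higher in floxed lungs and none fully lower, with a median log2 fold change of 0.33; they come from 5 genes, 3 of them from Csf1r. The 4 probe sets of the ligand had 1 fully higher (median 0.04), and the 5 of the regulators had 2 fully higher and 1 fully lower (median 0.06). Over all probe sets tested the median was -0.03, with 18.4% fully higher and 24% fully lower. The roles were not tested against each other.

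The remaining genes of the same pathway were taken from lists. Of 10 measured genes for other ligands and receptors of this family, 6 were tested and none passed, with 1 at an unadjusted p under 0.05 in limma (14.3% over all genes) and a median of 0.03. Csf2, the gene of GM-CSF, read 54.5 and 44.3 in floxed lungs, against 62.2 and 49.8 in wild type lungs (log2 fold change -0.14, adjusted p = 0.738). Il34, the second ligand of CSF1R, overlapped as well (-0.12, adjusted p = 0.757). Il3ra, which pairs with the beta chains to bind interleukin 3, read 62.8 and 65.6 in floxed lungs, against 54.9 and 45.9 in wild type lungs (0.28, adjusted p = 0.402). Csf3, Il3, Il5 and Il5ra were too low to be tested.

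Of 20 tested genes that carry signals from these receptors, 1 rose, Pim1, and none fell, with a median of 0.15. Pim1, a kinase gene that STAT5 induces, read 320 and 303 in floxed lungs, against 158 and 151 in wild type lungs (log2 fold change 0.94 ± 0.12 SE, limma adjusted p = 0.0145, but above the threshold without wild type replicate 2, at 0.0635). Jak2, Stat5a and Stat5b, which the beta chain acts through, had 0.05, 0.00 and 0.03, and Cish, another STAT5 target, 0.14. Of the 20, 5 were below 0, among them Socs2, which lay fully lower in floxed lungs (-0.23, adjusted p = 0.480). The adaptor genes Fcer1g and Tyrobp stood at 1.00 and 0.51 and did not pass (adjusted p = 0.0843 and 0.239), nor did Inpp5d, a phosphatase gene that restrains these signals (0.47, adjusted p = 0.231). Of 24 other myeloid transcription factors tested, 1 rose, the growth factor response gene Egr1 (0.76, adjusted p = 0.0364, a call lost without any 1 of the 4 arrays), and none fell, with a median of 0.14. Irf8 and Irf4, which steer monocytes and dendritic cells, had 0.81 and 0.75 and did not pass (adjusted p = 0.0668 and 0.0578). Ikzf1, the gene of a lymphoid and myeloid zinc finger factor, did not pass either (0.58, adjusted p = 0.111). With probe sets of a gene averaged, Irf8, Irf4 and Ikzf1 had 0.63, 0.30 and 0.18.

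Some markers of monocytes, macrophages and lymphocytes passed the test, while no neutrophil or dendritic cell marker passed as higher. Of 17 measured monocyte and interstitial macrophage markers, all tested, 4 rose and 1 fell, with a median of 0.68. Fcgr4, an activating Fc receptor, read 259 and 185 in floxed lungs, against 75.5 and 74.5 in wild type lungs (1.37, limma adjusted p = 0.0136), and Aif1, a macrophage gene, rose by 1.34 (adjusted p = 0.00922). Fcgr1 and C1qb rose by 1.04 and 0.89 and Cd163, a haemoglobin scavenger receptor, fell by 1.01, and each of these 3 calls was lost without wild type replicate 2 and without 2 other arrays. The summed intensity of the 17 was 26062 and 23430 in floxed lungs and 20695 and 19722 in wild type lungs. Much of it was Lyz2, which did not pass, at 13596 and 11956 in floxed lungs, against 10604 and 10971 in wild type lungs. Of 14 measured alveolar macrophage markers, all tested, 1 rose and none fell, with a median of 0.26. It was Marco, a scavenger receptor, at 275 and 267 in floxed lungs, against 60.2 and 73.1 in wild type lungs (1.80, adjusted p = 0.00218). Ccl6, Cd68 and Chil3 had 0.82, 0.73 and 0.55 and did not pass (adjusted p = 0.111, 0.0987 and 0.0893). Of the 14, 3 were below 0, and Fabp1 and Mrc1 lay fully lower in floxed lungs (-0.80 and -0.07, adjusted p = 0.112 and 0.832). The sum of the 14 was 17990 and 16473 in floxed lungs and 13167 and 13954 in wild type lungs. Chil3, the brightest of them, read 7224 and 7193 in floxed lungs, against 4742 and 5076 in wild type lungs. Of 11 measured lymphocyte markers, 8 were tested, 5 rose and none fell, with a median of 0.93. Jchain, the joining chain of secreted antibodies, read 6470 and 6874 in floxed lungs, against 324 and 673 in wild type lungs (3.79, adjusted p = 0.00258), and Mzb1, another gene of antibody-secreting cells, rose by 1.61 (adjusted p = 0.00837). The T cell genes Cd8b1, Cd5 and Cd3g rose by 1.49, 0.96 and 0.89; Cd5 lost its call without wild type replicate 2, and Cd3g without that array or either floxed array. The B cell genes Ms4a1 and Cd79b were below 0, at -0.44 and -0.12, and did not pass (adjusted p = 0.333 and 0.792). Ms4a1 lay fully lower in floxed lungs. The summed intensity of the 11 was 7671 and 7758 in floxed lungs and 961 and 1360 in wild type lungs, mostly Jchain. No marker of these 3 lists was at 0, and the part of these cells in the values of Csf2rb, Csf1r and Spi1 was not tested.

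**Figure D4:**
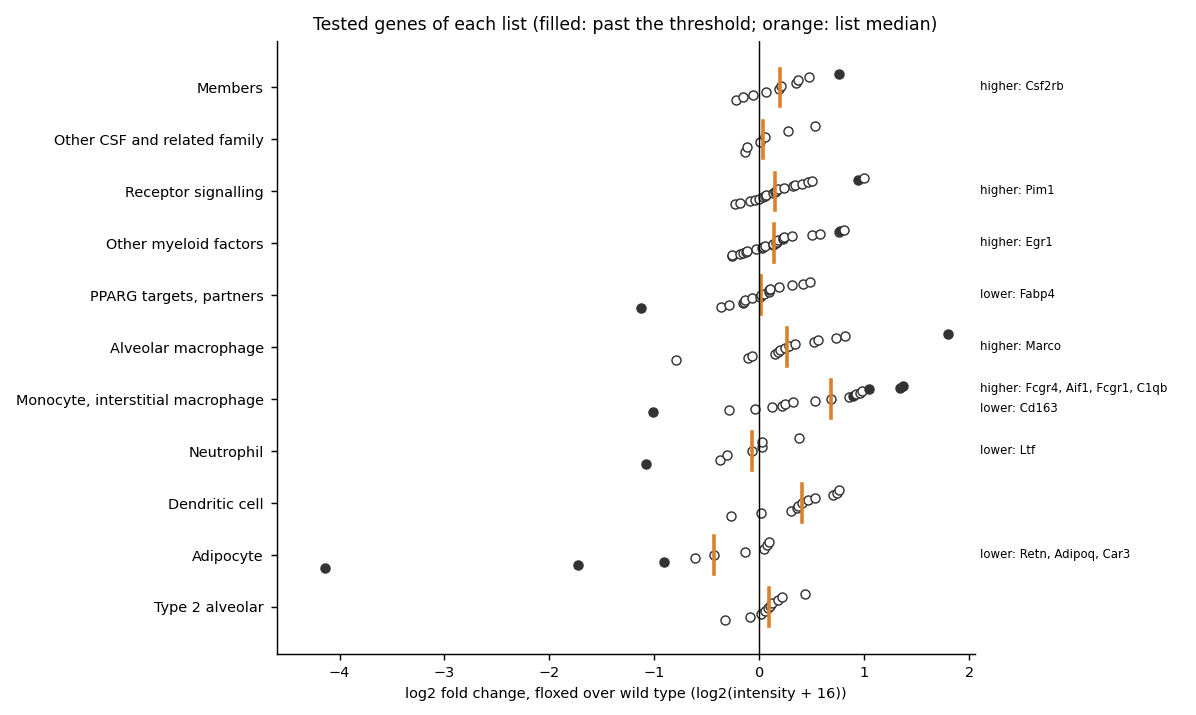
Log2 fold change, floxed over wild type, of each tested gene (points; filled where the adjusted p passed 0.05, with the names at right) in the 10 members and in the lists of related genes and cell markers, with each list's median in orange. The members' median is 0.20, beside 0.14 for other myeloid factors, 0.15 for receptor signalling and 0.26 for alveolar macrophage markers. It is below the 0.68 of the monocyte and interstitial macrophage list. The 6 defining lung markers, which are not drawn, had a median of 0.27.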

How the data were processed

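The authors deposited 1 linear intensity per probe set and array. Per the submitters' processing notes, Affymetrix Expression Console made them; no version or summarization method is stated. The values had been scaled: their mean after trimming 2% at both ends came to 150.001 for all 4 arrays. No detection calls were used, so low intensities have no stated floor, and with 2 arrays a group precision is limited by their number. The labels name a pair of labelling kits without saying which array used which, and no batch is labelled.

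Names came from the platform annotation: of 45101 probe sets, 64 were controls, 34945 had 1 symbol, 932 several and 9160 none listed. Symbols were checked through Entrez numbers against RefSeq GRCm38.p6 (0 changed). Array medians differed by at most 0.0646 (log2), so the scaling was kept. On log2(intensity + 16), features under the 30th percentile of the mean log2 level were left out (intensity 20.4 for genes, 12.3 for probe sets). limma 3.58.1 in R 4.3.3 (lmFit, eBayes, two-sided) compared the groups, with 2 residual degrees of freedom plus 4.78 prior ones; fold changes are on the pseudocount scale and understate low genes. The 95% intervals are not adjusted for multiple tests. An exact permutation test of 2 against 2 arrays cannot pass 0.05 and was not used.

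The procedure was tested on simulated data. Replicate numbers of the titles showed no pairing of arrays across groups: deviations of like-numbered arrays correlated at r = -3e-04 across genes. The members, lists and tests were chosen with earlier results of these data known. Named were all members and, per list, called genes (up to 8), filled to 4 by absolute moderated t. Jak2, Stat5a, Stat5b, Cish, Socs2, Fabp1, Mrc1, Lyz2, Ms4a1 and Cd79b were named after their values were seen. Alternatives covered scaling, pseudocount, filter, prior, probe set rule, block and each array left out.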

Additional observations from a re-analysis of the deposited data

How the results depend on the processing

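Of 120 values of the 10 members under 12 alternatives, 107 kept their direction and side of the threshold, 9 lost the call of Csf2rb and 4 reversed. The count of called members stayed at 1 after quantile normalization, with a pseudocount of 64, and with a prior that was robust and followed intensity. It was 0 with a pseudocount of 1 (adjusted p of Csf2rb 0.111), with no filter on low values (0.156), with the replicate number as a block (0.0926), with probe sets of a gene averaged (0.0707), and without any 1 array. Ranking genes by mean linear intensity, an alternative chosen after seeing the data, also gave 0 (0.0501). The replicate block left the log2 fold change of Csf2rb at 0.75, with an SE of 0.14 beside 0.13 in the main fit. In the fit of probe sets the count was 0, but 1 (1455660_at of Csf2rb) with a pseudocount of 64 and with that robust prior. Reversed values were 0.33 for Csf2ra with averaged probe sets and -0.0114 for Cebpb after quantile normalization, when Sftpd also turned to -0.0269. With single arrays left out, Csf3r ran from -0.14 to 0.0154 and Cebpb from -0.13 to 0.26, Csf3r turning without floxed replicate 1 and Cebpb without floxed replicate 2. S100a8 ran from -0.80 to 0.18 and S100a9 from -0.82 to 0.062, both turning without floxed replicate 2. Where an array was left out, the lone array of its group was taken to vary like the other group. The cause of the lost or reversed values was not tested.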

Other observations

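Ncf4, the gene of a cytosolic subunit of the phagocyte NADPH oxidase, is the other protein-coding neighbour of Csf2rb2 on chromosome 15 (RefSeq order, GRCm38.p6). It read 162 and 127 in floxed lungs, against 94.4 and 108.8 in wild type lungs, so the groups did not overlap (log2 fold change 0.45, limma adjusted p = 0.249). Tst, 2 genes beyond Csf2rb, overlapped between groups (-0.18, adjusted p = 0.686), and Mpst, next to Tst, lay fully higher at 40.3 and 48.3 in floxed lungs, against 34.4 and 36.7 in wild type lungs (0.22, adjusted p = 0.503). The neighbours were looked at after the values of Csf2rb were known.

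Of 12 measured dendritic cell markers, which include the receptor gene Flt3 for another haematopoietic growth factor, 11 were tested and none passed in limma, with 5 at an unadjusted p under 0.05 (14.3% over all genes) and a median log2 fold change of 0.40. Ccl22 and Fscn1, which mature dendritic cells express, stood at 0.70 and 0.73 without passing (adjusted p = 0.115 and 0.149). With probe sets of a gene averaged, Fscn1 had 0.27. The summed intensity of the 12 markers was 1333 and 1562 in floxed lungs and 1138 and 1031 in wild type lungs. Flt3 read 33.9 and 28.9 in floxed lungs, against 20.03 and 13.9 in wild type lungs (0.53, adjusted p = 0.157). Of the 4 measured sex-linked genes, Xist rose and Eif2s3y, Kdm5d and Uty fell.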
